A study of Mus musculus with 4 samples.

Results

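The IkB family of NF-kB regulators was followed across small-intestinal epithelial cells of mice with and without a constantly active IKKb kinase. Its members here were the genes Nfkbia, Nfkbib, Nfkbie, Bcl3, Nfkbiz and Nfkbid, taken by name. Each was represented by 1 probe at 1 spot per array, so 6 of the 41174 non-control probes carried the family, and all 6 passed the filter that left 12437 of 27734 named genes. The probe of Nfkbid is listed under an older name and was recognised through its RefSeq accession. RNA came from freshly isolated small-intestinal cells of IKKb(EE)IEC mice and of wild-type (WT) littermates, with 2 samples per genotype that the series' design text calls biological replicates, and 250 ng of each was labelled with Cy3 and hybridised to 1 one-colour Agilent array. In IKKb(EE)IEC mice a form of IKKb with glutamates in place of the activation-loop serines is made in intestinal epithelial cells, from a transgene under the villin promoter in published accounts of the line, while the WT littermates lack it. No further treatment is named, and the sources used here do not give age, strain, sex or the number of animals behind a sample.

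IkB proteins are built around ankyrin repeats that bind the Rel domain of NF-kB dimers. The classical members IkB-alpha (Nfkbia), IkB-beta (Nfkbib) and IkB-epsilon (Nfkbie) hold NF-kB in the cytoplasm until the IKK complex phosphorylates them, after which a ubiquitin ligase with a beta-TrCP subunit marks them for the proteasome. The atypical members Bcl-3 (Bcl3), IkB-zeta (Nfkbiz) and IkB-NS (Nfkbid) act mainly in the nucleus, where they bind NF-kB dimers on DNA and raise or lower transcription of particular genes. Several of these genes are themselves NF-kB targets, and in the intestine the epithelium uses this feedback to limit its response to microbes.

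The promoters of the family are shown because NF-kB binds DNA at short kB elements and these genes were measured together. RefSeq promoter sequences (GRCm38.p6, 250 bases before to 50 bases after a transcript start) were found for 5 of the 6 members, with 3 starts for Nfkbid. A pattern of GGG, any 3 bases and TTCC was searched on both strands beside the kB consensus, and the same bases can match both. The 250 bases before the start are printed 5′ to 3′ on the strand of the gene, for the classical members and for the one Nfkbid start with matches, and capitals mark a match to either pattern. They lie at chr12:55492648-55492897 (minus strand) for Nfkbia, chr7:28766645-28766894 (minus strand) for Nfkbib, chr17:45555450-45555699 (plus strand) for Nfkbie and chr7:30422156-30422405 (plus strand) for Nfkbid.
Nfkbia: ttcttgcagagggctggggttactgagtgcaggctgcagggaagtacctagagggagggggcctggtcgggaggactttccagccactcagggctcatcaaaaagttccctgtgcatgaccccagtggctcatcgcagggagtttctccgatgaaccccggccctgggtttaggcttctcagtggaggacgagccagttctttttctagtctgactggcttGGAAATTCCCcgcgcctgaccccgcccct
Nfkbib: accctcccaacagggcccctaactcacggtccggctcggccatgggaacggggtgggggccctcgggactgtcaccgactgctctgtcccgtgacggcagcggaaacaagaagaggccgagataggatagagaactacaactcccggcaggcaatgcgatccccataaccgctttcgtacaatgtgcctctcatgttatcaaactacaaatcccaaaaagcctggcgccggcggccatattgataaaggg
Nfkbie: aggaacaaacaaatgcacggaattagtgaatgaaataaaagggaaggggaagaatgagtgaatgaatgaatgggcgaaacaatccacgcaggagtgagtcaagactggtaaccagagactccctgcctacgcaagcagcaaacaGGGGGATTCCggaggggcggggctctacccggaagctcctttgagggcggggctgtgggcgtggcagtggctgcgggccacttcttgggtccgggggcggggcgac
Nfkbid: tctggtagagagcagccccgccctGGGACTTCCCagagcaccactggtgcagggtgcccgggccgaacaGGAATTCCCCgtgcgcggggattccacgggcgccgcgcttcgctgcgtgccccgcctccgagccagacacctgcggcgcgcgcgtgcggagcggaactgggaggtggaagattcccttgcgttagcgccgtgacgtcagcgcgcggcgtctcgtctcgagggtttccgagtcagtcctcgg

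Counted from the start, with -1 as the base before it, the match in Nfkbia lay at -29 to -20 and that in Nfkbie at -106 to -97, and each fits both patterns. Nfkbid had matches at -226 to -217 (kB consensus) and at -181 to -172 (both patterns). The Bcl3 promoter held a consensus match, GGGAAGTCCC, at positions 3 to 12 after its start (counted from 1), and none in the 250 bases before it. The Nfkbib window held neither pattern, which says only that these letters are not in it. The pattern with 3 free bases was thus found in 3 of the 5 members and the consensus in 4 of 5, against 6.31% and 5.14% of the 27025 genes in the table. Per promoter these were 3 and 4 of 7, against 5.56% and 4.51% of 32851. A looser pattern of GGG, any 5 bases and CC was found in 4 of 5 members and in 53.5% of genes, and TATAAA in Nfkbia alone, in reverse orientation after the start, against 15.7% of genes. A match is a run of letters and not a measured binding site.

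**Figure D1:**
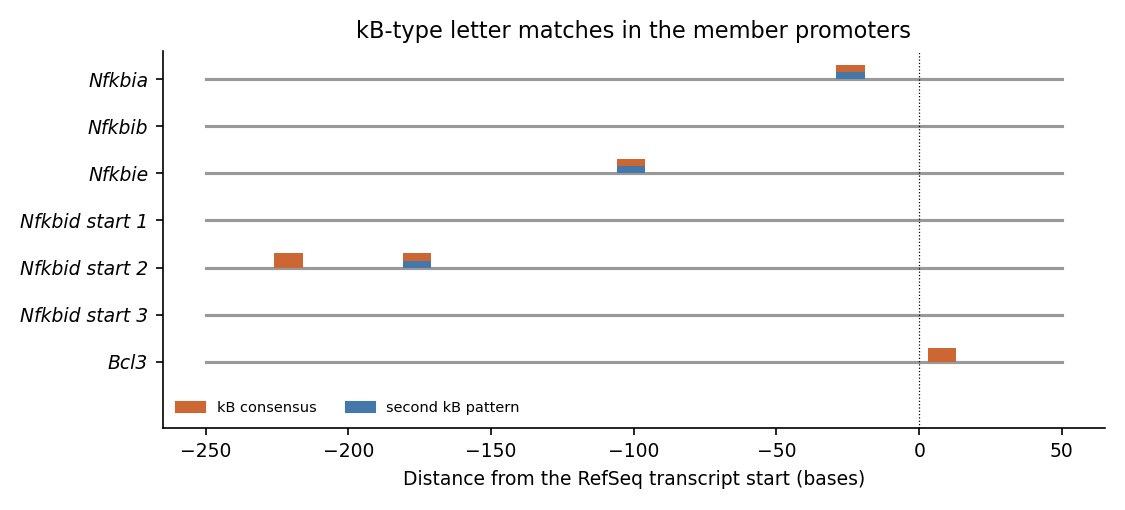
Positions of matches to the kB consensus (orange) and the second pattern with 3 free bases (blue) in the 7 promoter windows of 5 members, drawn as distance in bases from the RefSeq transcript start. Nfkbia, Nfkbie and 1 of 3 Nfkbid starts hold matches before the start, Bcl3 holds 1 just after it, and Nfkbib holds none.

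Levels are given as normalized log2 signal, which is log2 of the scanner's background-subtracted signal minus log2 of the same array's 75th percentile, so that 0 equals that percentile. Different probes bind with different strength, so levels are compared between genotypes and never between genes. All 12 epithelial markers tested, among them Epcam, Vil1 and Cdx2, were well above background on all 4 arrays. The arrays lie on 1 slide, with WT at positions 1 and 2 and IKKb(EE)IEC at positions 3 and 4, so position and genotype cannot be told apart. Between the WT replicates 76 genes differed by over 4-fold, between the IKKb(EE)IEC replicates 3, and WT replicate 2 was the sole array with the liver transcripts Alb, Ahsg, Apoh and Fgb well above background. Calls were therefore repeated without each array. Ikbkb, the gene of the activated kinase, stood at -0.72 and -0.27 in the WT pair, against 0.33 and 0.34 in the IKKb(EE)IEC pair, and its log2 difference of 0.83 ± 0.21 missed the threshold (adjusted p = 0.0550). It is not stated if its probe detects the transgene.

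The comparison of genotypes asks how transcripts of the IkB family, whose classical members the IKK complex phosphorylates, differ under constant IKKb activity. In IKKb(EE)IEC, 5 of the 6 members rose: Nfkbie by 12.2-fold, Nfkbia by 6.11-fold, Bcl3 by 4.44-fold, Nfkbib by 2.97-fold, and Nfkbid, which was not well above background in WT, by at least 1.14-fold. Nfkbiz did not pass the test. A gene passed at an adjusted p below 0.05 in limma, with Benjamini-Hochberg adjustment over all 12437 genes, and 8.02% of these genes were called higher (7.2% lower and 15.2% in either direction, and 38.1% at an unadjusted p below 0.05). The median log2 fold change of the 6 members was 1.86, against -0.12 over all genes tested. In all 6 members both IKKb(EE)IEC arrays lay above both WT arrays, which was so for 28.3% of all genes. Nfkbid passed the filter only through the IKKb(EE)IEC arrays, which favours a higher value there. It is included in these counts and in the median, but its call and its separation are not read as support. Under a filter that asks every gene to be well above background on each of the 4 arrays, 4 of 5 members were called higher, as were 7.48% of 10310 genes. Without IKKb(EE)IEC replicate 1 or replicate 2, 3 members passed (Nfkbia, Nfkbie and Bcl3), where 1.33% and 1.81% of all genes were called higher. Without WT replicate 1 or 2, 5 passed, where 21.2% and 15.4% of all genes were called higher. All fold changes below are IKKb(EE)IEC minus WT on the log2 scale with the standard error of the limma fit, n = 2 arrays per genotype.

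**Figure D2:**
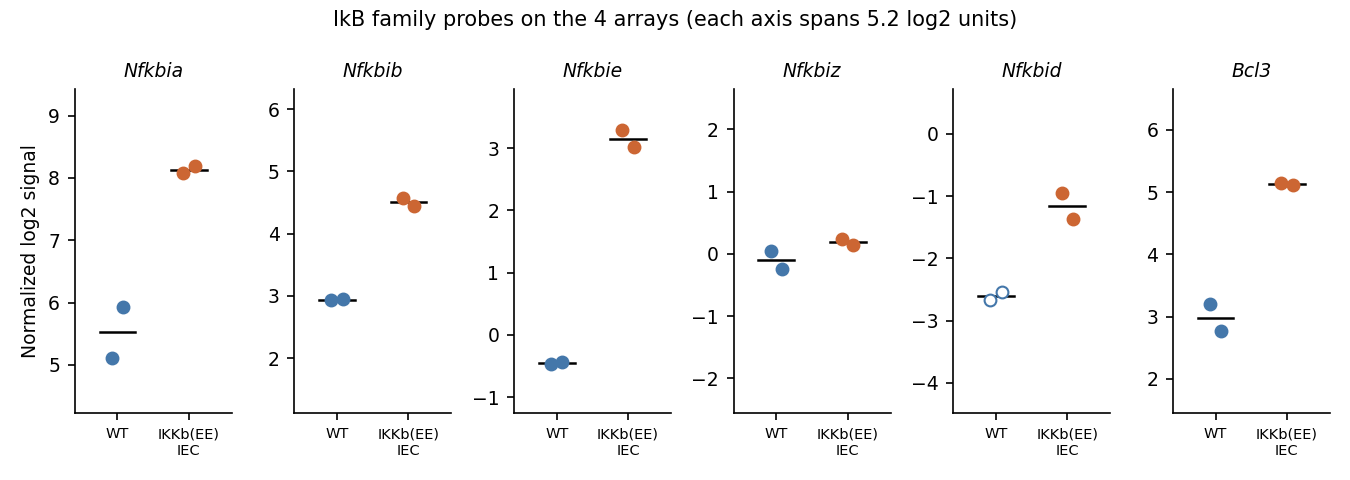
Normalized log2 signal of the 6 member probes on each of the 4 arrays (points, replicate 1 at left), with the mean of 2 arrays as a line; open points were not well above background, and every axis spans the same range. The IKKb(EE)IEC points lie above the WT points in each panel, by 3.46 between the nearest arrays for Nfkbie and by 0.10 for Nfkbiz.

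Nfkbia encodes IkB-alpha, the classical inhibitor that is broken down and remade fastest after a stimulus. Its probe (chr12:56408088-56408583, mm8, minus strand) read 5.11 and 5.93 in the WT pair, against 8.08 and 8.19 in the IKKb(EE)IEC pair. As scanner signal these were 2084 and 4044 against 25695 and 31381 intensity units. The 2 WT arrays were 0.82 apart, the widest gap between replicates in the family, and the groups stayed 2.15 apart at their nearest arrays. The log2 fold change was 2.61 ± 0.30 (adjusted p = 0.00778 in limma). It was 2.20 without WT replicate 1 and 3.02 without WT replicate 2.

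Nfkbib encodes IkB-beta, a classical inhibitor whose own transcription is regarded as less tied to NF-kB than that of Nfkbia. The probe (chr7:28467908-28468589, mm8, minus strand) read 2.93 and 2.95 in the WT pair, against 4.58 and 4.44 in the IKKb(EE)IEC pair, so that replicates lay close and the groups did not overlap. The rise was 1.57 ± 0.17 (adjusted p = 0.00641). Without IKKb(EE)IEC replicate 1 and 2 the values were 1.5 and 1.64 and no longer passed (adjusted p = 0.0911 and 0.0656). Leaving out an array of that genotype leaves a single sample, which the fit assumes to vary as the WT pair does.

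Nfkbie encodes IkB-epsilon, a classical inhibitor known for a slower feedback than IkB-alpha. The probe (chr17:45026632-45026691, mm8, plus strand) read -0.47 and -0.44 in the WT pair, against 3.29 and 3.02 in the IKKb(EE)IEC pair, with scanner signals of 43.6 and 48.7 against 923 and 876. It cleared background on each of the 4 arrays, though it was dim in WT. The log2 fold change of 3.61 ± 0.18 (adjusted p = 0.000998) was the largest in the family and ranked 41 of 12437 genes from the top. Its size differed between sets of values, with 2.28 ± 0.13 in the authors' value table and 2.63 ± 0.12 after the repaired normexp correction, which also adds an offset of 50, while it passed in both (adjusted p = 0.00202 and 0.000723). In the table and after that correction Nfkbia, at 2.88 and 2.90, was the larger of the pair, so the order of these 2 genes is not fixed by the data.

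Bcl3 encodes Bcl-3, which binds p50 and p52 homodimers in the nucleus. The probe (chr7:18967035-18967094, mm8, minus strand) read 3.2 and 2.76 in the WT pair, against 5.15 and 5.11 in the IKKb(EE)IEC pair. The WT arrays were 0.44 apart and the IKKb(EE)IEC arrays 0.04, against a gap of 1.91 between the groups. The rise was 2.15 ± 0.21 (adjusted p = 0.00506), and it was 2.37 and 1.93 without WT replicate 1 and 2.

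Nfkbiz encodes IkB-zeta, a nuclear member that is induced by IL-1 and Toll-like receptor signals and whose mRNA is short-lived. The probe (chr16:55736929-55736988, mm8, minus strand) read 0.04 and -0.24 in the WT pair, against 0.24 and 0.14 in the IKKb(EE)IEC pair. The groups lay only 0.10 apart at their nearest arrays, less than the 0.28 between the WT arrays. The log2 difference of 0.29 ± 0.18 did not pass (adjusted p = 0.288), and with 2 arrays per genotype this does not show an equal level.

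Nfkbid encodes IkB-NS, a nuclear member studied mostly in lymphocytes and macrophages. The probe (chr7:30136262-30136321, mm8, plus strand) read -2.66 and -2.54 in WT, where it was not well above background, and -0.94 and -1.36 in IKKb(EE)IEC, where it was. The scanner signals were 9.5 and 11.3 against 49.2 and 41.9. The fit gave a log2 difference of 1.45 ± 0.21 (adjusted p = 0.0159). Set against the lowest signal well above background on each WT array (-1.30 and -1.39), the rise was at least 1.14-fold. That bound compares group means, and IKKb(EE)IEC replicate 2, at -1.36, lay below the -1.30 of WT replicate 1. In the authors' value table the difference was 0.31 ± 0.09 and did not pass (adjusted p = 0.0731), nor did it without either IKKb(EE)IEC array (adjusted p = 0.141 and 0.0650).

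**Figure D3:**
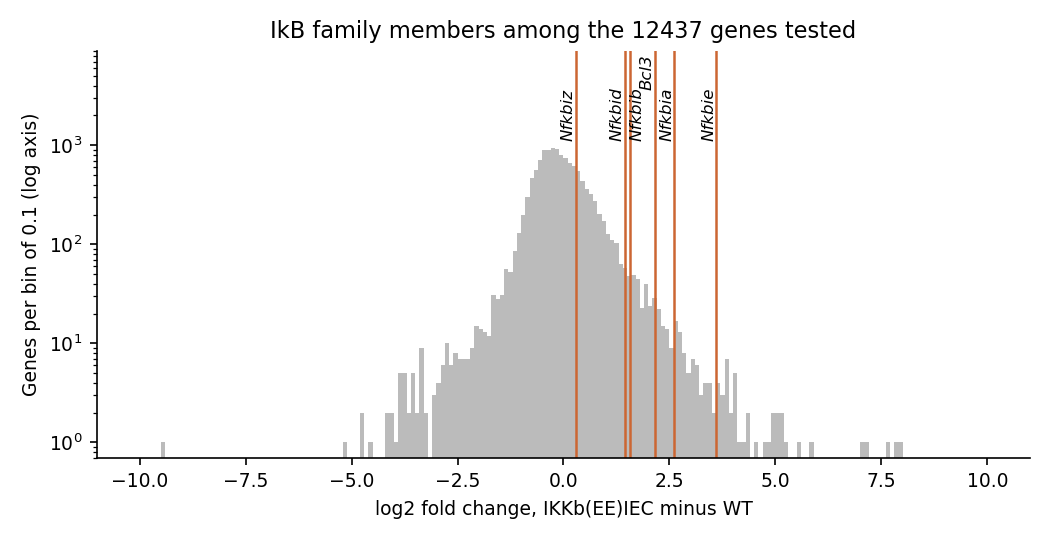
Histogram of log2 fold changes (IKKb(EE)IEC minus WT, x axis) of the 12437 genes tested, with the number of genes per bin of 0.1 on a log axis; orange lines mark the 6 members. Nfkbie, at 3.61, ranked 41 from the top, Nfkbia 107, Bcl3 189, Nfkbib 397, Nfkbid 454 and Nfkbiz 3247.

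To see whether members moved unequally, each was set against Nfkbib on the same array, a difference that no scaling between arrays can move. The difference of Nfkbie to Nfkbib went from -3.40 and -3.39 in WT to -1.29 and -1.41 in IKKb(EE)IEC, a change of 2.04. That of Nfkbia went from 2.18 and 2.99 to 3.51 and 3.75, a change of 1.04, and that of Bcl3 changed by 0.58. That of Nfkbiz went from -2.89 and -3.19 to -4.34 and -4.29, a change of -1.28. In these 4 the genotypes did not overlap, whereas the difference of Nfkbid to Nfkbib changed by -0.12 with overlapping values. Such non-overlap is common with 2 against 2 arrays. In normalized signal, both IKKb(EE)IEC arrays lay above both WT arrays in 28.3% of all genes and below both in 40.8%. The share for differences to Nfkbib was not computed. The exact two-sided permutation test over samples gave p = 0.333 for each of the 4 (0.417 after Benjamini-Hochberg over 5 tests), the smallest p that 2 against 2 arrays allow, and p = 0.667 for Nfkbid. In the authors' value table the changes were 0.80 for Nfkbie, 1.40 for Nfkbia, 0.64 for Bcl3, -1.36 for Nfkbiz and -1.16 for Nfkbid. The values of Nfkbie and Nfkbid thus moved most from one set of values to the other.

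Of 5 listed NF-kB subunits, the proteins that IkB proteins bind, 4 were measured and 3 rose: Nfkb2, which encodes p100 with its own IkB-like ankyrin repeats, by 2.25 ± 0.19, Relb, the partner of p52 in the non-canonical pathway, by 1.92 ± 0.20, and Nfkb1, which encodes p105, also with ankyrin repeats, by 1.62 ± 0.36 (adjusted p = 0.00381, 0.00641 and 0.0420). Rela, the main transactivating subunit bound by IkB-alpha, had a value of 0.63 ± 0.16 and did not pass (adjusted p = 0.0556). The median was 1.77. Without IKKb(EE)IEC replicate 1 and 2 the count was 1 and 2, with Nfkb2 passing in both, and without either WT array it was 4.

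The IKK kinases and the genes of the ubiquitin ligase and proteasome entry were read as separate lists. Of all genes, 15.2% were called in either direction. Among the IKK complex and related kinases limma called 0 of 3 measured genes (1 higher at an unadjusted p below 0.05), with values of 0.83 for Ikbkb and 0.27 for Tbk1, a kinase related to IKK. Of 7 measured genes of the ubiquitin ligase and proteasome entry 1 rose, Fbxw11, which encodes a beta-TrCP subunit that recognises phosphorylated IkB (1.38 ± 0.18, adjusted p = 0.0128), and 6 did not pass (median -0.11). Without either WT array 2 of these genes rose, and 1 fell without WT replicate 1, while 1 of the IKK kinases rose. Fbxw11 did not pass without either IKKb(EE)IEC array (adjusted p = 0.138 and 0.0979). Of 7 other binders of IkB or RelA limma called 0 (1 lower at an unadjusted p below 0.05), or 1 higher and 1 lower without WT replicate 2. The smallest p values there belonged to the corepressor gene Tle1 (-0.69 ± 0.26, adjusted p = 0.118) and the SUMO ligase gene Pias1 (0.35 ± 0.17, adjusted p = 0.195, not well above background in WT).

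Some other negative regulators of NF-kB rose beside the IkB genes. Of 6 measured, 3 rose and 3 did not pass (median 0.82), where 8.02% of all genes were called higher. Zc3h12a passed the filter only through the IKKb(EE)IEC arrays, so its call is included in this count but not read as support. Of the 4 well above background on all 4 arrays, only Tnfaip3 and Tnip1 passed. Tnfaip3, which encodes the ubiquitin-editing enzyme A20, rose by 2.76 ± 0.24, and Tnip1, which encodes the A20-binding protein ABIN-1, by 2.15 ± 0.17 (adjusted p = 0.00385 and 0.00332). Zc3h12a, whose product is an RNase that degrades inflammatory mRNAs, Nfkbiz mRNA among them, had a log2 difference of 1.00 ± 0.18 (adjusted p = 0.0258). It did not pass without either IKKb(EE)IEC array. Its WT readings of -1.08 and -1.31 were not well above background, yet exceeded the lowest such values of those arrays (-1.30 and -1.39). The fitted value is therefore given for Zc3h12a and not a lower bound. Without WT replicate 1, 5 of the 6 rose. Upstream of IKK, 4 of 15 measured adaptors and kinases rose and 11 did not pass (median 0.37). Map3k14 passed the filter only through the IKKb(EE)IEC arrays, so its call is included in this count but not read as support. The 4 that rose were Map3k14, whose product NIK drives the non-canonical pathway, at least 4.85-fold higher, Birc3, a ubiquitin ligase of TNF receptor complexes, by 2.14 ± 0.21, and the Toll-like and IL-1 receptor signalling genes Irak1 by 1.00 ± 0.18 and Myd88 by 0.84 ± 0.20 (adjusted p = 0.00214, 0.00506, 0.0271 and 0.0462). Without either IKKb(EE)IEC array 2 of these passed, Map3k14 and Birc3, and without WT replicate 1, 7 rose and 2 fell. Of 10 genes linked to induction by IkB-zeta, only Ccl20 and Zc3h12a passed the filter, and both probes were dim in WT. The chemokine gene Ccl20 read -0.33 and 0.14 in the WT pair, against 7.43 and 6.64 in the IKKb(EE)IEC pair. Its rise was 7.14 ± 0.32 (adjusted p = 0.000893). The Ccl20 probe cleared background in both genotypes, whereas that of Zc3h12a did so in IKKb(EE)IEC alone. In the authors' value table, and likewise after the repaired normexp correction, 1 of the 2 passed.

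**Figure D4:**
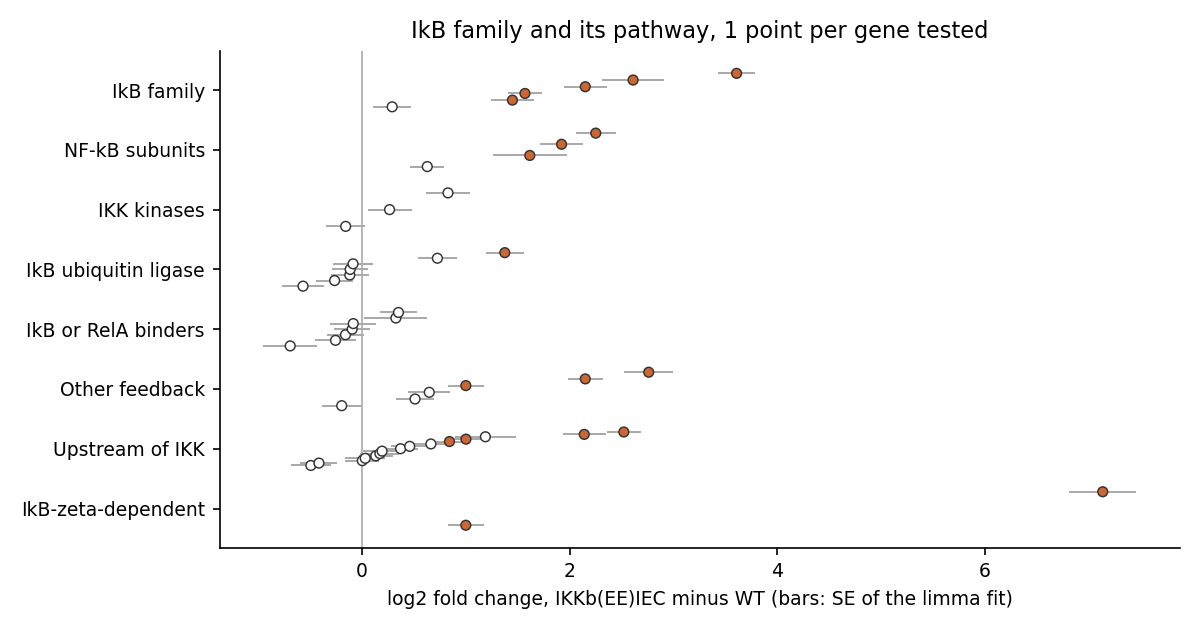
Log2 fold change (IKKb(EE)IEC minus WT, x axis, bars are SE) of every gene tested in the IkB family and 7 related lists, 1 point per gene; filled points passed at an adjusted p below 0.05, and Zc3h12a stands in 2 lists. Filled points make up 5 of 6 IkB genes and 3 of 4 subunits, and 0 of 3 IKK kinases. Nfkbid, among the filled IkB genes, passed the filter only through the IKKb(EE)IEC arrays.

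Markers of other cells that isolated epithelium can hold were read beside these rises. In bulk RNA, fewer cells of a type and less RNA per cell cannot be told apart. Of 12 measured macrophage and dendritic cell markers 7 rose and none fell, where 8.02% of all genes were called higher and 7.2% lower. Of the 7, Adgre1, C1qa, C1qc and Fcgr1 lacked a WT array with signal well above background, and so passed the filter only through the IKKb(EE)IEC arrays. Of the 5 markers well above background on all 4 arrays 1 rose, Aif1, and the values of C1qb and Flt3 were -0.15 and -0.79. Csf1r and Cd14 differed by 0.34 and 0.86, short of the threshold (adjusted p = 0.451 and 0.0713). Summed over these 5 the normalized signal was 8.81 and 11.5 in the WT pair and 24.3 and 20.0 in the other. Aif1 went from 0.12 and 1.41 in WT to 3.96 and 3.59 in IKKb(EE)IEC. It was the brightest of the 5 in IKKb(EE)IEC and weighs most in that sum, which therefore does not show a rise of the 5 as a group. Over the 12 markers the summed normalized signal was 10.9 and 14.5 in the WT pair, against 47.7 and 37.5 in the IKKb(EE)IEC pair, while Mrc1, Cx3cr1 and Batf3 were not well above background on any array. More of these markers were called higher without either WT array and fewer without either IKKb(EE)IEC array. The share of all genes called higher, given above for the family, moved the same way. The part of these cells in the rises of the IkB genes was not tested. Among epithelial markers limma called 0 of 12 (3 higher and 1 lower at an unadjusted p below 0.05; 1 higher and 1 lower without WT replicate 1, 4 and 1 without replicate 2), with summed signals of 4398 and 4955 for WT against 3392 and 3915 for IKKb(EE)IEC. Without Lgals4, the brightest, the other 11 summed to 1532 and 1584 against 1564 and 1778, and the median log2 difference of the 12 was 0.12. Among T and NK cell markers it called 0 of 12 (1 higher and 3 lower unadjusted; 1 and 5 without WT replicate 1, 1 and 3 without replicate 2), with sums of 121 and 156 against 106 and 93.1. B and plasma cell markers had 2 falls among 5 (Blk, at least 2.27-fold, and Cr2; 4 falls without WT replicate 1, 1 and 0 when IKKb(EE)IEC replicate 1 or 2 was left out), with sums of 5.70 and 11.4 against 8.48 and 6.62, and Ms4a1, Cd79a, Pax5 and Mzb1 were not well above background on any array. Stroma, muscle and endothelium markers had 1 fall among 5 (Myh11; 2 without either WT array and 0 without either IKKb(EE)IEC array), with sums of 19.5 and 17.6 against 18.8 and 17.3, and of the neutrophil markers only Mpo was measured (-0.06).

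The genes whose pattern over the 4 arrays was nearest to each member were found by Euclidean distance between profiles centred on their own means. Nearest to Nfkbia were Stab1, Tnfaip3 and Mboat1, at distances of 0.19, 0.24 and 0.35 log2 units. All 3 shared with Nfkbia a lower value on WT replicate 1 than on replicate 2, by 0.82 for Nfkbia. Nearest to Nfkbie were Chst8, Ncf4 and Trpv3, at 0.12, 0.18 and 0.23, and nearest to Nfkbib were Lenep, Ripk3 and Plekhg2, at 0.01, 0.07 and 0.08. Bcl3 had C9orf72, Oas3 and Oas1a as neighbours, at 0.03, 0.11 and 0.12, which like Bcl3 were lower on WT replicate 2 than on replicate 1. Nfkbid had Ly6g6e, Klra8 and Fmnl3, at 0.10, 0.12 and 0.13, none of them well above background in WT. The same limit holds for Mboat1, Lenep, Chst8, Trpv3, C9orf72 and Oas3, so their WT values are background-level readings. Nfkbiz had Fam91a1, Sphk2 and Strbp, at 0.01, 0.03 and 0.03, none of which passed the test. With 4 arrays these distances describe the samples only.

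**Figure D5:**
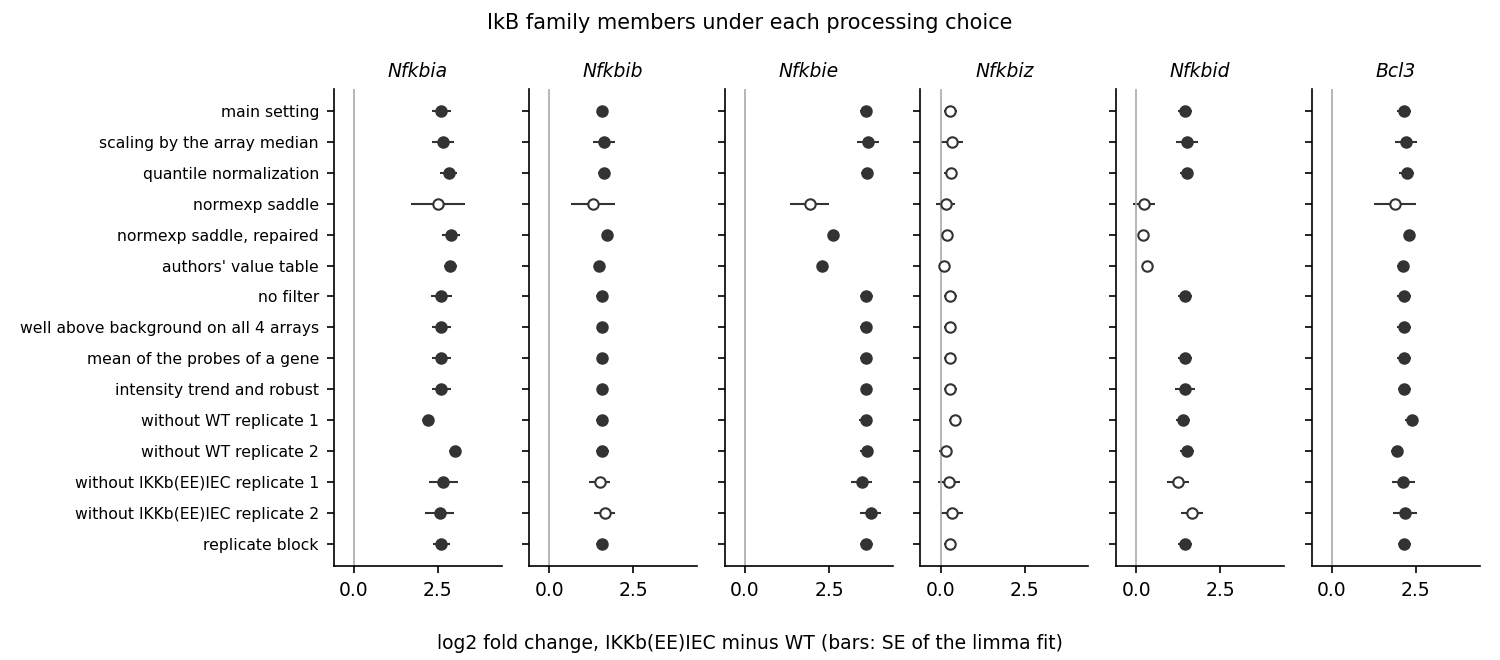
Log2 fold change (x axis, bars are SE of the limma fit) of each member under the main setting and 14 processing choices; filled points passed at an adjusted p below 0.05, and Nfkbid has no point where all 4 arrays had to be well above background. Nfkbia, Nfkbie and Bcl3 passed under every choice but the normexp correction as first run, and Nfkbiz passed under none.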

How the data were processed

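Total RNA of 2 WT and 2 IKKb(EE)IEC samples was measured on Agilent arrays. Per the file headers, the deposited intensity values are Feature Extraction 9.5.3.1 signals, background-subtracted and detrended, with no normalization between arrays. Their 75th percentile was 60.3 and 66.1 in WT, against 94.6 and 107.8 in IKKb(EE)IEC. In WT 34.3% and 36.0% of spots were well above background, against 40.8% and 41.1% in IKKb(EE)IEC. The lowest normalized value well above background was -1.30 and -1.39 in WT, against -1.83 and -1.99 in IKKb(EE)IEC. A probe could thus miss that flag in WT at a normalized level that earned it in IKKb(EE)IEC. Spot flags (above background, saturated, outlier) are other columns of the deposited files. The authors' value table of 40913 probes holds linear intensity values with column medians of 111.5 to 112.0, and their normalization is not stated in the labels or headers.

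From log2 signal the 75th percentile of the same array was subtracted, control and outlier spots were left out, the spots of a probe were averaged, and a probe entered if well above background on at least 2 arrays. A gene took its brightest probe. Names follow RefSeq (GRCm38.p6) for 24375 probes matched by accession. The genotype comparison used limma 3.58.1 (lmFit, then eBayes) under R 4.3.3, with two-sided p-values adjusted by Benjamini-Hochberg, and was tested on simulated data. Where neither array of a genotype had the probe well above background, the fold is a lower bound: that group's level was taken, per array, as the probe's value or the array's lowest value well above background, whichever was higher. Arrays give no counts, and their number limits the precision. Nothing beyond the design text says the samples are separate animals, so p-values refer to these samples only. In limma the spread of a gene between samples is combined with a variance estimated over all genes.

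Members and gene lists were chosen with earlier results of these data known. The text names all members, per pathway list up to 4 called genes with the largest change or 2 with the smallest p, Ikbkb, and the 3 genes nearest to each member. Rela, the cell markers and the liver transcripts were named after their values were seen. The alternatives were other scalings, background corrections, filters, probe rules and variance models, each array left out, and a replicate block.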

Additional observations from a re-analysis of the deposited data

How the results depend on the processing

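No member changed sign under any of the alternatives run. With normexp correction as first run, 0 members passed in limma (3 at an unadjusted p below 0.05) and 0 of all genes, with values of 2.51 for Nfkbia, 1.30 for Nfkbib, 1.92 for Nfkbie, 0.24 for Nfkbid and 1.88 for Bcl3 (adjusted p = 1.00 for each). The local background exceeded the signal at 4 spots on each of 2 arrays. With the background of those spots set to the array median, a repair chosen after seeing the data, 4 members passed and Nfkbid had a value of 0.20. With the authors' values, 4 members passed and Nfkbid had a value of 0.31. With 1 array left out, 3 to 5 members passed, and the values were 2.20 to 3.02 for Nfkbia, 1.5 to 1.64 for Nfkbib, 3.48 to 3.74 for Nfkbie, 0.15 to 0.43 for Nfkbiz, 1.24 to 1.66 for Nfkbid and 1.93 to 2.37 for Bcl3. The cause of the losses without an IKKb(EE)IEC array was not tested. Over all genes the count of calls was 6175 without WT replicate 1, 4181 without WT replicate 2, 247 when IKKb(EE)IEC replicate 1 was left out, 329 when IKKb(EE)IEC replicate 2 was, 843 without a filter and 1893 as reported. The split of higher and lower calls was 997 and 896 as reported, 1260 and 735 with a median shift, 1419 and 550 with the repaired normexp correction and 771 and 1157 with a filter on all 4 arrays. Under a median shift limma gave all genes the same variance. With a replicate block 5 members passed. Deviations of same-numbered arrays correlated at 0.108 over genes, and 2 pairs cannot decide whether the replicate numbers mark a true pairing. Normexp with the rma method was not run. Nfkbid has no value with the filter on all 4 arrays. With the looser promoter pattern 4 members held a match in place of 3. Probes near background, such as Nfkbid and Nfkbie in WT, have the least certain sizes.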

Other observations

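Nfkbil1 and Tonsl, named in older listings as inhibitor-like relatives of the IkB family but not members of it, were looked up after the other values were seen. Nfkbil1 read 0.35 and 0.17 in the WT pair, against 0.89 and 0.83 in the IKKb(EE)IEC pair, a log2 difference of 0.59 ± 0.17 that did not pass (adjusted p = 0.0689 in limma). Tonsl, which encodes a DNA repair protein with ankyrin repeats, read 1.13 and 0.65 in the WT pair, against 1.26 and 1.38 in the IKKb(EE)IEC pair, and its difference of 0.43 ± 0.22 did not pass either (adjusted p = 0.204).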
